A study of Mus musculus with 18 samples.

Results

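The SOX genes followed here are 10 transcription factor genes that mark the passage from neural progenitor to neuron: Sox1, Sox2 and Sox3 (class SoxB1), Sox21 (SoxB2), Sox4, Sox11 and Sox12 (SoxC), Sox5 and Sox6 (SoxD), and Sox9 (SoxE). They were taken from the read counts by their Entrez identifiers, and all 10 were found among the 27179 genes counted. RNA was sequenced from mouse embryonic stem cells differentiated as embryoid bodies toward spinal motor neurons with 1 µM retinoic acid (RA) and 0.5 µM of the Hedgehog agonist SAG. There were 18 libraries in 6 groups of 3, described by the study as independent differentiations. Day 2 progenitors came from the iCre line. The day 4 groups were control, from the iHoxc6 line without doxycycline (Dox), and iHoxc6, iHoxc8, iHoxc9 and iHoxc10, each after 48 h in 3 µg/ml Dox. Every line derives from Ainv15 cells and carries a single Dox-inducible transgene at the Hprt locus, which encodes an N-terminally Flag-tagged Hox protein in the iHox lines. The Hox transgene can be induced in every cell type of the embryoid body, and each Hox gene was represented by a single line. The cultures are mixtures of motor neurons, interneurons and remaining progenitors, and in such bulk RNA fewer cells expressing a gene and less of its RNA per cell cannot be told apart.

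SOX proteins bind DNA through an HMG domain that recognizes a short core sequence and bends the helix, usually next to a partner protein such as a POU factor. In the developing spinal cord, SoxB1 proteins keep cells in the progenitor state, Sox21 counteracts them, and SoxC proteins accumulate as cells leave the cycle and switch on neuronal genes. SoxD proteins lack an activation domain of their own and modulate other SOX proteins, and Sox9 acts in neural stem cells and in the switch to gliogenesis.

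Total counts ranged from 24498630 to 33168533 per library, so that 3 counts corresponded to 0.0904 to 0.122 CPM (read counts scaled to a common library total), a limit that covers counting error only. No member fell near this floor: the lowest count was 21, for Sox5 in day 2 progenitors. The induced Hox genes matched their labels: Hoxc6 stood at 499.9 to 532 CPM in iHoxc6, Hoxc8 at 361 to 409.9 CPM in iHoxc8, Hoxc9 at 213 to 236 CPM in iHoxc9 and Hoxc10 at 425 to 433 CPM in iHoxc10. Hoxc6 was also raised in iHoxc10, at 43.1 to 49.4 CPM, against 1.80 to 5.17 CPM in control and 1.96 to 2.33 CPM in iHoxc9. The study likewise reports some induction of Hoxa/c6 by Hoxc10. The part of Hoxc6 in the iHoxc10 differences was not tested. Library names carry 4 run prefixes. Day 2 progenitors and iHoxc8 each have a prefix of their own, control shares one with iHoxc6, and iHoxc9 shares one with iHoxc10. Only iHoxc6 and control share both run and line. In iHoxc9 against iHoxc10 the line cannot be told apart from the Hox gene. In the other comparisons the run cannot be told apart from the day or the Hox gene, nor can the line. Dox was given to every iHox group but not to control or day 2 progenitors. Against either of these, Dox itself cannot be told apart from the Hox gene, also in iHoxc6.

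The labelled cell types were checked against marker genes. The 12 neuron markers, led by Tubb3 and Nefl, summed to between 388 and 819.8 CPM in day 2 progenitors and between 8158 and 12701 CPM in the day 4 libraries, and 12 of 12 were higher in each day 4 group. The 12 neural progenitor markers were led by Vim and Nes. From day 2 to control the mean went from 460 to 656 CPM for Vim and from 160 to 237 CPM for Nes. The mean of Mki67, also on the list, went from 309 to 92.5 CPM. The sum of the 12 was 1466 to 1538 CPM on day 2 and 1159 to 2148 CPM on day 4. Against day 2, control had 1 marker higher and 4 lower, and iHoxc6 had 5 higher and 2 lower. iHoxc8 and iHoxc9 each had 5 higher and 4 lower, and iHoxc10 had 3 higher and 6 lower. The shares of all genes called against day 2 are given below with the members. The 8 pluripotency markers, led by Dppa5a and Klf4, summed to 11.1 CPM on day 2 and to at most 1.39 CPM on average in any day 4 group. The mesoderm and endoderm list of 12, led by Foxa2, which floor plate also expresses, and Meox1, averaged 51.8 CPM on day 2 and 22.1 to 46.5 CPM on day 4, with no gene of the list higher and 6 or 7 lower in any day 4 group.

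Upstream sequence from the RefSeq annotation of GRCm38 was matched for 8 of the 10 members, as 13 windows of the 250 bases before an annotated start, since Sox6 has 6 starts. Those of Sox2 and of the SoxC genes are shown as examples of a gene that fell and of genes that rose between day 2 and control. Sox1, which fell further and also has a window, is not shown. Each runs 5′ to 3′ on the strand of its gene and ends at the start site. Capitals mark CCAAT (or ATTGG, its reverse complement) and, in Sox12, the octamer ATGCAAAT that POU factors recognize.
Sox2, chr3:34649745-34649994, plus strand: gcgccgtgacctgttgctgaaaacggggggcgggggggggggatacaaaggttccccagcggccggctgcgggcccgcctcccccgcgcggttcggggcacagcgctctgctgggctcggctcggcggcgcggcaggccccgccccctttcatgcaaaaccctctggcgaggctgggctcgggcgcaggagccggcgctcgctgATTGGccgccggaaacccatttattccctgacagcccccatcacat
Sox4, chr13:28953700-28953949, minus strand: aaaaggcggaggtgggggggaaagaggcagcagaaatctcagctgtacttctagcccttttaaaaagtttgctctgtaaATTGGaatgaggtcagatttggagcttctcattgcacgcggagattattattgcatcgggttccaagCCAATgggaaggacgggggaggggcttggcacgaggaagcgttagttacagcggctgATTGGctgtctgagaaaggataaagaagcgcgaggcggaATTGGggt
Sox11, chr12:27342719-27342968, minus strand: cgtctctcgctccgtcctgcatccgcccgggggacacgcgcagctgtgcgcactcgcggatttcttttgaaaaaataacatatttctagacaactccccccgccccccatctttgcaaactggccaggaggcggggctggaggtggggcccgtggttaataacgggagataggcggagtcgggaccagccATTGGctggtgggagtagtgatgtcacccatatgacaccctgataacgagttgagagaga
Sox12, chr2:152398047-152398296, minus strand: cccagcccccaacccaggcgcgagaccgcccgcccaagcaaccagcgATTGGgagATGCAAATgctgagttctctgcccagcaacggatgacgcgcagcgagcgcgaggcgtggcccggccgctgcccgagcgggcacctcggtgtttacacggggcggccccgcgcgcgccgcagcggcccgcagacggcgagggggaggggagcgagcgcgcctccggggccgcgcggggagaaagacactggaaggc

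CCAAT was found on either strand in 7 of the 13 windows, those of Sox1, Sox2, Sox4, Sox11 and Sox12 and 2 of the 6 of Sox6, against 33.8% of all 32851 promoter windows of this length. Sox4 held 4 copies. The octamer lay 188 to 195 bases upstream of Sox12, the only member window that held it, and occurs in 1.60% of all windows. The SOX core ACAAT was found in 4 of the 13 windows, that of Sox5 and 3 of the 6 of Sox6, against 27.7% of all windows. Of the other motifs searched on both strands, CANNTG, the E-box of proneural factors, was in 9 of the 13 windows against 66.2% of all, TATAAA was in 1 of 13 (a Sox6 start) against 12.4%, and TGATNNAT, a HOX-PBX site, was in 0 of 13 against 7.68%. Matches may overlap, as the octamer does an E-box in Sox12 and CCAAT does ATTGT, the reverse complement of ACAAT, at a Sox6 start. The ratio of observed to expected CpG was 0.833 for Sox2, 0.801 for Sox4, 0.810 for Sox11, 1.01 for Sox12, 0.987 for Sox1 and 0.641 for Sox21. That of Sox5 was 0.308, those of Sox6 ran from 0.140 to 0.735, and the median of all windows was 0.373. The Sox5 window (chr6:143947107-143947356) and all 6 Sox6 windows lie inside the span of their gene. They belong to internal starts, and all ACAAT matches of the members are in these windows. The motif matches and CpG ratios describe these letters only.

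The first comparison asked how the SOX genes differ between progenitors and the neurons of the control culture. SoxB1 genes fell and SoxC genes rose. Sox1 fell by 2.37 on the log2 scale, and all 3 SoxC genes rose by 0.77 to 1.17. The largest rises were those of Sox5 and Sox9, which were low in progenitors. In all, 5 members were higher and 3 lower in control at an adjusted p under 0.01, while 21.2% of the 20944 genes tested were higher and 21.2% were lower. Among the 15634 of these genes with at least 10 counts in 3 libraries, a group that all members belong to, 28.0% were higher and 26.9% lower. With the additional threshold of a log2 fold change beyond 2, 3 members passed (Sox1 lower, Sox5 and Sox9 higher), against 12.6% of all genes. The median of the members was 0.24 and that of all genes 0. Levels below are CPM normalized by the TMM method, as mean ± SD of 3 libraries. Differences are log2 fold changes with their standard error (SE) from edgeR's quasi-likelihood test. Where groups are said not to overlap, the share of all genes separated in this way was not counted.

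**Figure D1:**
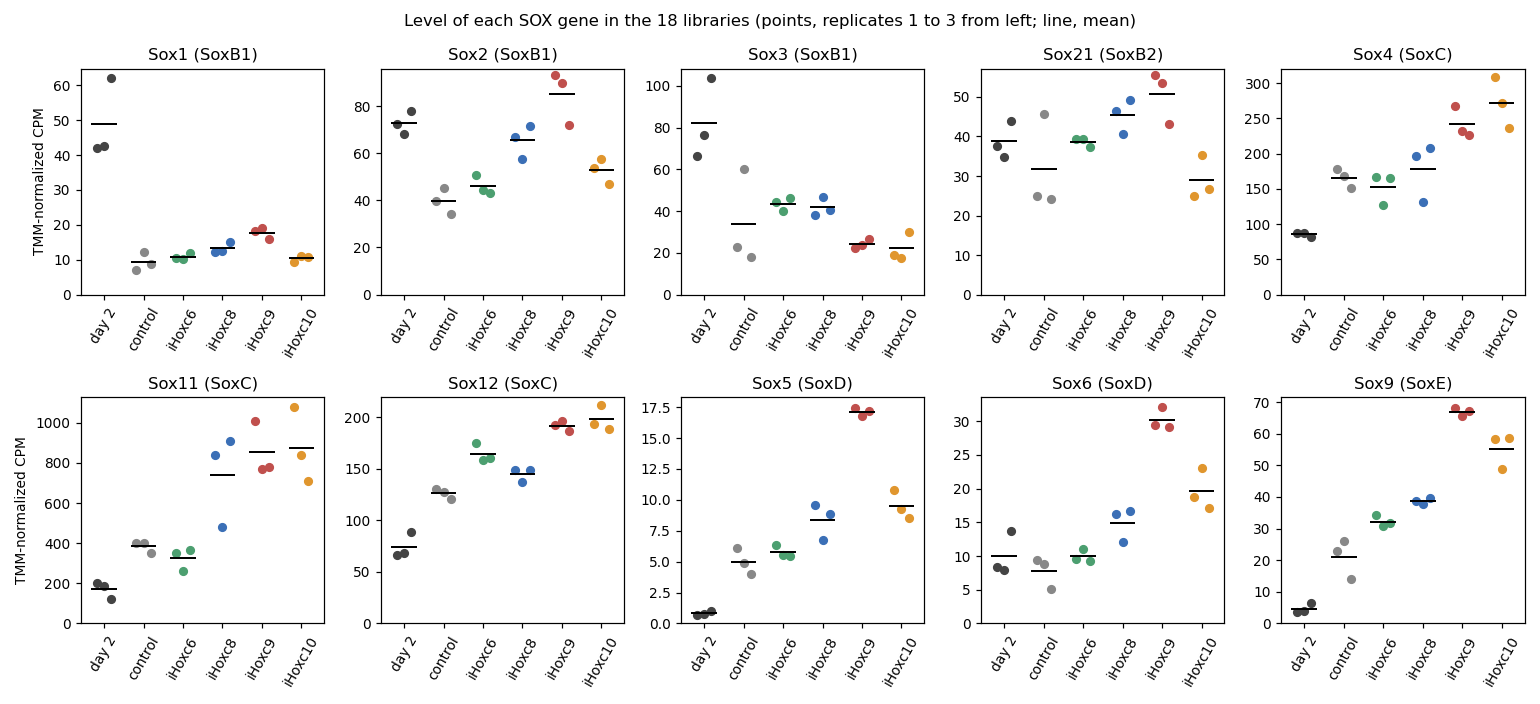
TMM-normalized CPM (linear axes from 0) of the 10 SOX genes in the 18 libraries; points are replicates 1 to 3 from left to right and lines are group means. Sox1 lies between 41.9 and 62.1 CPM on day 2 and below 20 CPM in every day 4 library. Every Sox4, Sox11, Sox12, Sox5 and Sox9 value of day 4 lies above all those of day 2. The share of all genes separated in this way was not counted.

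Sox1, Sox2 and Sox3 are the SoxB1 genes that maintain neural progenitors, each transcribed from 1 exon. Sox1 (chromosome 8, 12395519 to 12399555) was at 41.9, 42.5 and 62.1 CPM in day 2 progenitors and at 7.13, 12.3 and 8.87 CPM in control. The groups did not overlap, and the log2 fold change was -2.37 (SE 0.19, adjusted p = 4.53e-10), 5.18-fold lower in control. Sox2 (chromosome 3, 34649995 to 34652461) was at 72.5, 68.1 and 77.8 CPM on day 2 and at 39.8, 45.1 and 34.3 CPM in control. Every control library was below every progenitor library, by a log2 fold change of -0.87 (SE 0.14, adjusted p = 1.39e-05), a smaller change than that of Sox1. Sox3 (chromosome X, 60891366 to 60893430) was at 66.2, 76.6 and 104 CPM on day 2 and at 22.7, 60.1 and 18.2 CPM in control. Its groups did not overlap either, but replicate 2 of control lay near the progenitors. The log2 fold change was -1.29 (SE 0.30, adjusted p = 0.000787), and -2.00 without that library. In a fit of these 2 groups alone the adjusted p was 0.022. The noncoding genes Sox1ot and Sox2ot span Sox1 and Sox2 on the same strand, and whether this affected the counts was not tested. Sox2ot averaged 28.7 CPM on day 2 and 15.4 CPM in control, and Sox1ot 7.92 and 2.91 CPM.

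Control replicate 2 also stood apart in progenitor markers, and the part of this in the SOX values was not tested. Its neural progenitor markers summed to 2148 CPM, against 1313 and 1159 CPM in replicates 1 and 3. Mki67, a proliferation marker of that list, was at 156 CPM in it, against 73.7 and 47.4 CPM. Its neuron markers summed to 8309.8 CPM, the lowest of the 3 control libraries, which reached 9154 CPM. Results that rest on control are therefore also given without it where they change. Day 2 replicate 3 stood apart in neuron markers, which summed to 388 CPM in it, against 567 and 819.8 CPM in replicates 1 and 2. Without that library, 45 of the 50 member values against day 2 kept their direction and their side of the threshold. The part of its marker levels in the SOX values was not tested.

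Sox21, the SoxB2 gene that opposes SoxB1 activity (chromosome 14, 118233233 to 118237030), had 37.6, 34.7 and 43.9 CPM in progenitors and 25.0, 45.8 and 24.3 CPM in control. Replicate 2 of control was again the high one and overlapped the progenitors. The difference of -0.29 (SE 0.19, adjusted p = 0.225) did not pass the test, whereas without that library it was -0.65 (adjusted p = 0.00167).

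The SoxC genes, which act in newborn neurons, rose together. Sox11 (chromosome 12, 27334268 to 27342718) was at 203, 189 and 122 CPM on day 2 and at 402, 402 and 351 CPM in control. Sox4 (chromosome 13, 28948919 to 28953699) was at 87.9, 87.0 and 81.3 CPM on day 2 and at 178, 168 and 151 CPM in control. In both genes every control library was above every progenitor library. The log2 fold change was 1.17 (SE 0.22, adjusted p = 0.000125) for Sox11 and 0.96 (SE 0.16, adjusted p = 2.91e-05) for Sox4. Sox12 (chromosome 2, 152393611 to 152398046) had 66.0, 67.9 and 89.0 CPM on day 2 and 130.5, 128 and 120.5 CPM in control, again without overlap, with a log2 fold change of 0.77 (SE 0.12, adjusted p = 1.74e-05).

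Sox5 and Sox6 are the SoxD members, with many transcripts, and they differed from each other. Sox5 (chromosome 6, 143828425 to 144782287) was at 0.707, 0.765 and 1.03 CPM in progenitors and at 6.10, 4.89 and 4.00 CPM in control, 5.96-fold higher (log2 fold change 2.58, SE 0.22, adjusted p = 9.94e-10). Sox5os3, annotated on its opposite strand, had no count in any library. Sox6 (chromosome 7, 115470872 to 116040776) was at 8.39, 7.92 and 13.8 CPM on day 2 and at 9.35, 8.78 and 5.05 CPM in control. These groups overlapped, and the difference of -0.38 (SE 0.22, adjusted p = 0.165) did not pass the test. Sox9 (chromosome 11, 112782210 to 112787757), a SoxE gene of stem cells and glia, was at 3.64, 3.89 and 6.59 CPM on day 2 and at 23.0, 26.2 and 14.1 CPM in control. It rose 4.47-fold (log2 fold change 2.16, SE 0.21, adjusted p = 8.43e-09). The glial markers summed to 28.2 to 34.7 CPM on day 2 and 19.1 to 29.8 CPM in control. Of these 12, 3 were higher and 3 lower, against 21.2% of all genes each way.

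The same comparison with progenitors was made for each induced culture, and these comparisons share the day 2 libraries. In iHoxc6, 5 members were higher and 2 lower (background 22.7% and 23.9%), and 3 passed both thresholds (14.8% of all genes). In iHoxc8, 5 were higher and 2 lower (22.3% and 22.3%), and 3 passed both (14.2%). iHoxc9 had 6 higher and 2 lower (23.4% and 23.3%), with 3 past both (15.6%). iHoxc10 had 6 higher and 3 lower (24.1% and 26.1%), with 4 past both (18.7%). Among the genes with at least 10 counts in 3 libraries, 60.1%, 57.4%, 60.1% and 64.6% were called in either direction in iHoxc6, iHoxc8, iHoxc9 and iHoxc10. The 5 members that rose in all 5 day 4 groups were Sox4, Sox11, Sox12, Sox5 and Sox9, and the member that fell in all 5 was Sox1. The share of all genes called in the same direction in all 5 was not counted. Sox5 had the highest log2 fold change of the set in every day 4 group but one, from 2.58 in control to 4.35 (SE 0.22) in iHoxc9, where it was 20.4-fold higher. In iHoxc10 Sox9 was the highest, at 3.55 (SE 0.21) against 3.50 (SE 0.22) for Sox5. Sox6 rose past day 2 in iHoxc9 (1.59, SE 0.22, adjusted p = 1.42e-06) and in iHoxc10 (0.96, SE 0.22, adjusted p = 0.000506). In iHoxc8 it overlapped day 2 (0.58, SE 0.22, adjusted p = 0.0276), and passed without day 2 replicate 3 (0.88, adjusted p = 0.00083).

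**Figure D2:**
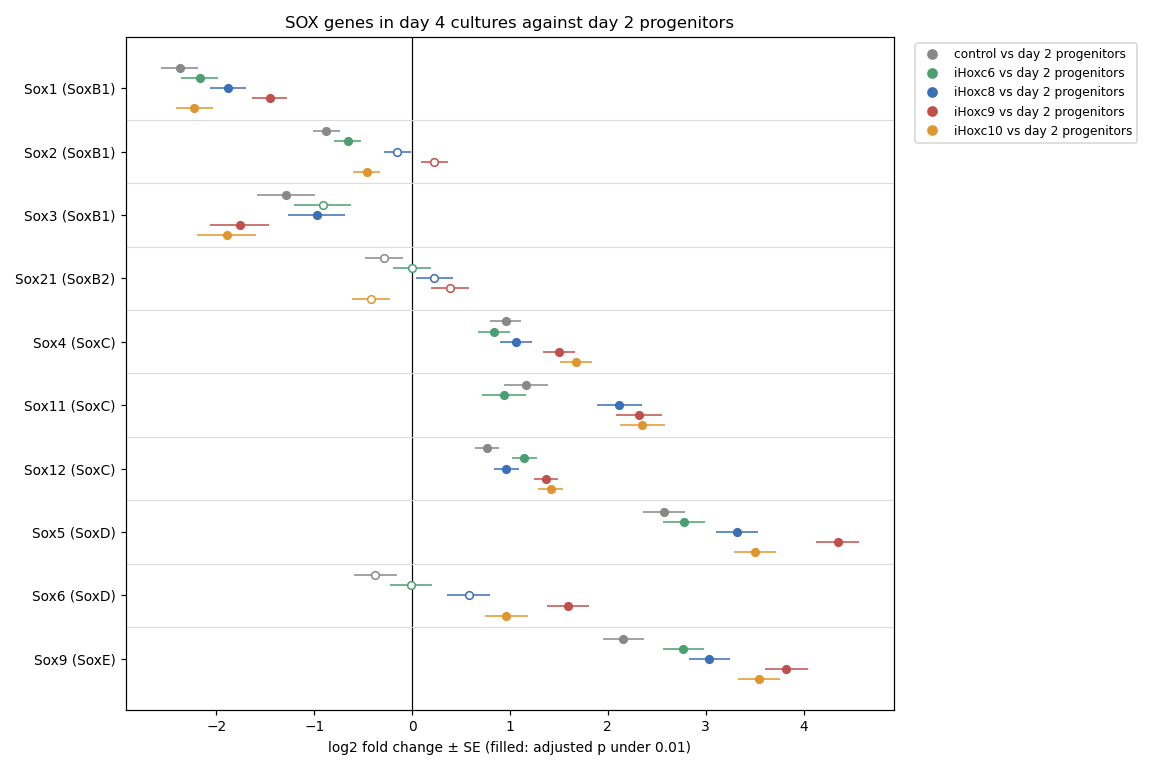
Log2 fold change ± SE of each SOX gene in the 5 day 4 groups against day 2 progenitors; filled points passed an adjusted p under 0.01. Sox1 is left of 0 and Sox4, Sox11, Sox12, Sox5 and Sox9 are right of 0 in all 5 groups, while Sox2 runs from -0.87 in control to 0.23 in iHoxc9.

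Within SoxB1 the genes took different courses across the day 4 groups. Sox1 stayed 2.74-fold to 5.18-fold below day 2 in all of them, with adjusted p-values of 4.24e-07 or less. Sox3 was lower in control, iHoxc8, iHoxc9 and iHoxc10 (log2 fold change -0.97 to -1.89). In iHoxc6 its log2 fold change of -0.92 (SE 0.29, adjusted p = 0.0104) missed the threshold, although it passed with DESeq2's Wald test (adjusted p = 0.0035). Its fall in iHoxc8 (adjusted p = 0.00703) was lost when replicate 3 of day 2 (adjusted p = 0.034) or any of the iHoxc8 replicates was left out (0.0113 to 0.0297). Sox2 was lower in control, in iHoxc6 (-0.66, SE 0.14, adjusted p = 0.000319) and in iHoxc10 (-0.46, SE 0.14, adjusted p = 0.00613), the last of which was lost without day 2 replicate 1 or 3 or iHoxc10 replicate 1 or 3 (adjusted p = 0.0161 to 0.0441). In iHoxc8 and iHoxc9 its libraries overlapped those of progenitors, at -0.15 (SE 0.14, adjusted p = 0.386) and 0.23 (SE 0.14, adjusted p = 0.178). Ordered by mean level, Sox2 ran from iHoxc9 (85.1 ± 11.3 CPM) through day 2 progenitors (72.8 ± 4.88), iHoxc8 (65.5 ± 7.09), iHoxc10 (52.8 ± 5.40) and iHoxc6 (46.2 ± 3.99) to control (39.7 ± 5.40). Among neighbors in this order only iHoxc8 and iHoxc10 did not overlap. Sox3 ran from day 2 (82.3 ± 19.5 CPM) through iHoxc6 (43.6 ± 3.26), iHoxc8 (41.9 ± 4.37), control (33.7 ± 23.0) and iHoxc9 (24.3 ± 2.07) to iHoxc10 (22.2 ± 6.98), and no neighbors after day 2 were separated.

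To compare genes with each other, levels were divided by exon length. The lengths came from GENCODE, whereas reads were counted on RefSeq genes. For Sox1 and Sox2 they were 4832 and 2057 bases, against RefSeq spans of 12395519 to 12399555 and 34649995 to 34652461. The shares, the sums and the order of close genes, such as Sox21 and Sox1, rest on these lengths. RefSeq lengths were not tried. On day 2 the highest per kilobase were Sox3 (39.8 CPM per kb) and Sox2 (35.4), followed by Sox11 (20.6), Sox4 (17.8), Sox12 (16.7), Sox21 (10.2) and Sox1 (10.1). Sox9 (1.14), Sox6 (0.676) and Sox5 (0.0581) were far below, on exon lengths that for Sox5 and Sox6 pool many transcripts. In control the SoxC genes led, with Sox11 at 46.3, Sox4 at 34.6 and Sox12 at 28.4 CPM per kb, and Sox2 followed at 19.3. Sox11 reached 102.8 CPM per kb in iHoxc9 and 105.5 in iHoxc10, the highest of any member in these groups. The SoxB1 genes made up 55.7% ± 4.3 of the summed level of the 10 genes on day 2 and the SoxC genes 36.4% ± 4.7. In control the shares were 22.9% ± 5.3 and 68.4% ± 6.8. The day 4 extremes were iHoxc6, at 26.5% ± 1.0 and 62.4% ± 2.0, and iHoxc10, at 14.5% ± 2.0 and 76.8% ± 3.0. A share also falls when other members rise. From control to iHoxc10, Sox1 went from 1.95 to 2.16 CPM per kb, Sox2 from 19.3 to 25.7 and Sox3 from 16.3 to 10.7. In every day 4 group the SoxC share lay above, and the SoxB1 share below, all values of day 2. The summed level was 152.5 ± 12.4 CPM per kb on day 2 and 161 ± 23.2 in control. It was 173 ± 15.3 for iHoxc6, 237 ± 41.2 for iHoxc8, 268 ± 28.9 for iHoxc10 and 286 ± 25.8 for iHoxc9.

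**Figure D3:**
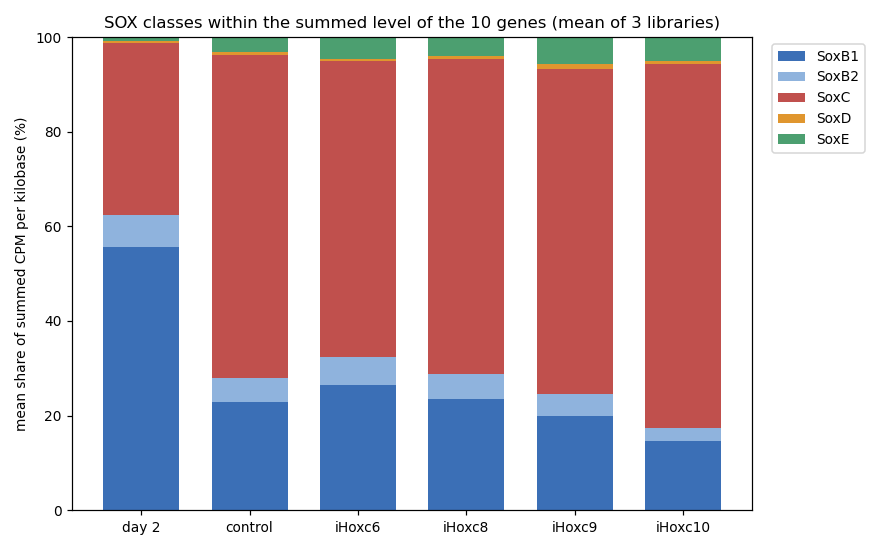
Mean share of each SOX class in the summed CPM per kilobase of the 10 genes, in percent, for the 6 groups (stacked bars from 0 to 100, mean of 3 libraries). SoxB1 makes up 55.7% on day 2 and 14.5% to 26.5% on day 4, and SoxC 36.4% on day 2 and 62.4% to 76.8% on day 4.

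The next comparisons asked how SOX levels differed when a Hox gene was induced, against control neurons of the same day. These comparisons share the control libraries, and in each of them Dox cannot be told apart from the Hox gene. In iHoxc6, the only one from the same line and run prefix as control, 0 of the 10 members passed an adjusted p under 0.01 in edgeR, and 0 in DESeq2's Wald test, against 0.587% of all genes. That test called 3.84% of the genes it gave an adjusted p. At an unadjusted p under 0.05 there were 2 members, against 21.2% of all genes. Those with the lowest adjusted p were Sox9 (0.61, SE 0.19, adjusted p = 0.0753) and Sox12 (0.38, SE 0.12, adjusted p = 0.0834). For both genes the iHoxc6 libraries lay above all control libraries, at 34.4, 30.7 and 31.6 CPM for Sox9 and at 175, 159 and 160.2 CPM for Sox12. Without control replicate 2, Sox3 was higher in iHoxc6 by 1.09 (adjusted p = 0.00274), the one member then called, when 5.2% of all genes were called.

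In iHoxc8, 2 members were higher and none lower (1.03% of all genes were higher). Sox2 had 67.1, 57.8 and 71.7 CPM, all above control (0.72, SE 0.14, adjusted p = 0.0038). Sox9 had 38.9, 37.8 and 39.6 CPM, also all above control (0.88, SE 0.19, adjusted p = 0.00859). DESeq2's Wald test called 5, these and Sox11, Sox5 and Sox6, and 9.25% of all genes it gave an adjusted p. Neither edgeR call held under every alternative. Both were lost without control replicate 1 or 3 or iHoxc8 replicate 1 or 3, with adjusted p-values from 0.0126 to 0.0802, and that of Sox9 also without iHoxc8 replicate 2 (0.0122) and with the replicate numbers as a block (adjusted p = 0.0147). Sox11 was at 840.3, 480.1 and 908 CPM. All 3 libraries were above control, yet the log2 fold change of 0.95 (SE 0.22, adjusted p = 0.0126) missed the threshold. Without iHoxc8 replicate 2, which was low, it was 1.18 (adjusted p = 0.00235), and Sox5 and Sox6 also passed (0.88 and 1.08, adjusted p = 0.00677 and 0.00729). That library was low in Sox4 as well, at 131 CPM against 197 and 208 CPM, and in Dcx, a gene of migrating young neurons, at 690.4 CPM against 1200.1 and 1281 CPM. Its Tubb3 level of 4199 CPM was above the 2861 and 2925 CPM of the others. Without control replicate 2 there were 6 calls in iHoxc8: Sox1, Sox3, Sox21 and Sox6 joined Sox2 and Sox9. In that fit 7.52% of all genes were called, against 3.38% without iHoxc8 replicate 2.

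iHoxc9 showed the widest difference from control, with 7 members higher and none lower (6.95% of all genes were higher, and 9.13% of those with at least 10 counts in 3 libraries). The median log2 fold change was 1.01 over the members and 0.00 over all genes. Sox5, Sox6 and Sox9 had the highest fold changes of the members. Sox6 was at 29.5, 32.2 and 29.1 CPM, 3.91-fold above control (1.97, SE 0.22, adjusted p = 8.52e-07). Sox5 was at 17.4, 16.7 and 17.2 CPM, 3.42-fold above control (1.77, SE 0.18, adjusted p = 2.27e-07). Sox9 was at 68.2, 65.6 and 67.1 CPM, 3.17-fold above control (1.67, SE 0.19, adjusted p = 1.45e-06). For all 3 genes iHoxc9 held the highest mean of the 6 groups and overlapped no other group. How many of all genes do so was not counted. Sox2 was at 93.1, 90.1 and 72.2 CPM, above every control library (1.10, SE 0.14, adjusted p = 4.75e-06), and Sox11 at 1010.2, 773 and 781 CPM was as well (1.15, SE 0.22, adjusted p = 0.000658). These 5 calls held under every alternative run. Sox1 (0.92, SE 0.19, adjusted p = 0.000972) and Sox12 (0.60, SE 0.12, adjusted p = 0.00106) were also higher, but both calls were lost without control replicate 3 (adjusted p = 0.0101 for Sox12, and just above the threshold for Sox1). Sox21 (0.68, SE 0.19, adjusted p = 0.0128) and Sox4 (0.55, SE 0.16, adjusted p = 0.0155) missed the threshold in edgeR and passed it in DESeq2's Wald test (adjusted p = 0.00777 and 0.00873). Without control replicate 2 Sox21 passed in edgeR as well (1.04, adjusted p = 5.63e-05). Sox3 had 22.4, 23.9 and 26.5 CPM, within the range of control (-0.47, SE 0.29, adjusted p = 0.273). Without control replicate 2 its sign turned, to 0.24 (adjusted p = 0.426).

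In iHoxc10, 6 members were higher than control and none lower (6.67% of all genes were higher). Sox6 (18.7, 23.0 and 17.1 CPM), Sox5 (10.8, 9.28 and 8.51 CPM) and Sox9 (58.4, 48.8 and 58.5 CPM) were again above all control libraries. Their log2 fold changes were 1.34 (SE 0.22, adjusted p = 0.000129), 0.93 (SE 0.18, adjusted p = 0.000717) and 1.39 (SE 0.19, adjusted p = 2.46e-05). All 3 SoxC genes were higher: Sox11 at 1079, 839 and 711 CPM (1.19, SE 0.22, adjusted p = 0.000506), Sox4 at 309, 271 and 236 CPM (0.72, SE 0.16, adjusted p = 0.00223) and Sox12 at 194, 212 and 189 CPM (0.65, SE 0.12, adjusted p = 0.000543). The calls of Sox6, Sox5, Sox9 and Sox11 held under every alternative run. That of Sox4 was lost without control replicate 3 (adjusted p = 0.0136), iHoxc10 replicate 1 (0.0201) or iHoxc10 replicate 2 (0.0103), and that of Sox12 without iHoxc10 replicate 2 (0.0101). Of the SoxB genes, Sox2 differed by 0.41 (SE 0.14, adjusted p = 0.0349, and 0.00708 in DESeq2's Wald test), Sox1 by 0.15 (SE 0.19, adjusted p = 0.63), Sox21 by -0.13 (SE 0.19, adjusted p = 0.71) and Sox3 by -0.61 (SE 0.30, adjusted p = 0.151). Without control replicate 2 the differences of Sox21 and Sox3 turned to 0.24 and 0.11, neither past the test. No member passed the additional threshold of a log2 fold change beyond 2 against control in any iHox line, against 0.115% of all genes for iHoxc6, 0.22% for iHoxc8, 1.48% for iHoxc10 and 2.7% for iHoxc9. In iHoxc9, Sox6 passed it without control replicate 1 (2.13) or control replicate 2 (2.07).

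**Figure D4:**
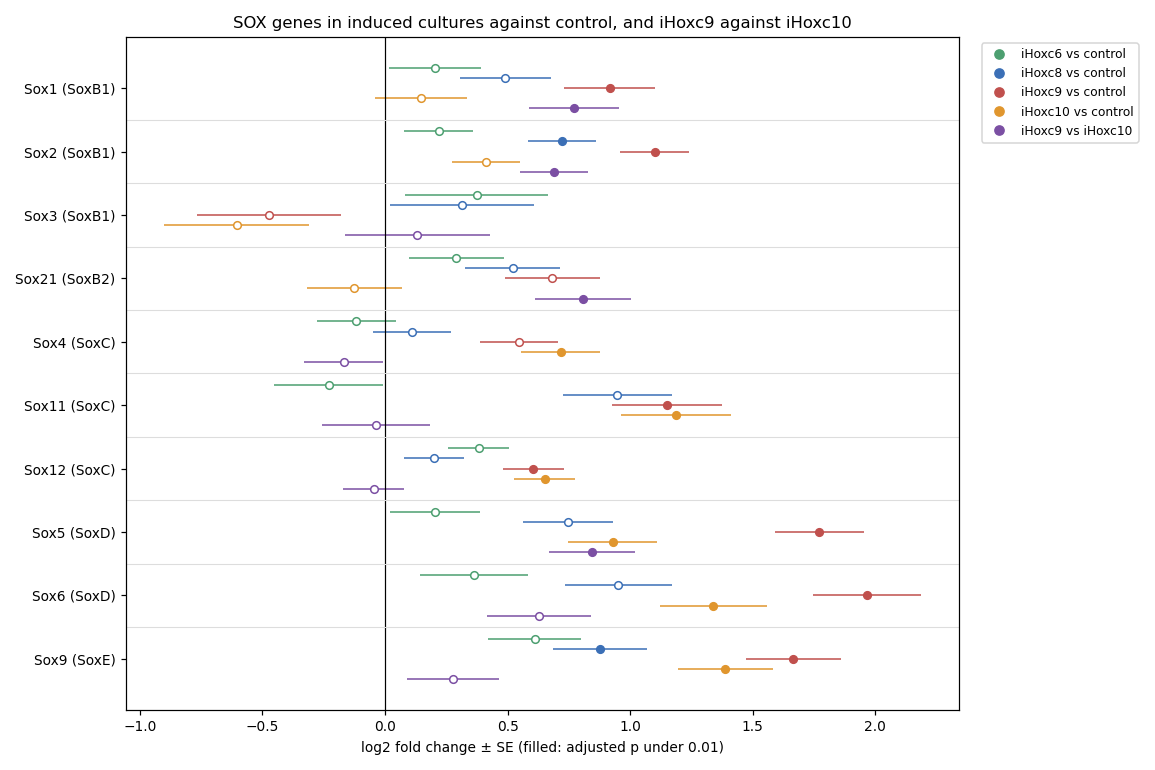
Log2 fold change ± SE of each SOX gene in the 4 induced cultures against control, and in iHoxc9 against iHoxc10; filled points passed an adjusted p under 0.01. Sox5, Sox6 and Sox9 are filled for both iHoxc9 and iHoxc10, Sox1 and Sox2 are filled for iHoxc9 but not iHoxc10, and no point is filled for iHoxc6 against control.

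iHoxc9 and iHoxc10 share a run prefix, and the direct comparison between them asked which SOX genes separate these posterior Hox genes. At an adjusted p under 0.01, 4 members were higher in iHoxc9 and none lower (2.6% of all genes were higher), and 0 passed the additional fold threshold (1.31% of all genes). Sox2 was higher by 0.69 (SE 0.14, adjusted p = 0.00191), Sox1 by 0.77 (SE 0.19, adjusted p = 0.00856), Sox21 by 0.81 (SE 0.19, adjusted p = 0.00878) and Sox5 by 0.84 (SE 0.18, adjusted p = 0.00262). For each of these genes all iHoxc9 libraries lay above all iHoxc10 libraries. The genes were picked by their adjusted p in these same libraries, and the share of all genes so separated was not counted. Sox1 was at 18.2, 19.2 and 16.0 CPM in iHoxc9 and at 9.35, 11.1 and 10.8 CPM in iHoxc10. Sox21 was at 55.6, 53.7 and 43.1 CPM against 24.9, 35.4 and 26.7 CPM. Sox3, the other SoxB1 gene, differed by 0.13 (SE 0.30, adjusted p = 0.886). The SoxC genes differed by -0.17 (Sox4, SE 0.16), -0.04 (Sox11, SE 0.22) and -0.05 (Sox12, SE 0.12), with adjusted p-values of 0.651 or more, and each overlapped between the groups. Sox6 (0.63, SE 0.21, adjusted p = 0.072) and Sox9 (0.28, SE 0.19, adjusted p = 0.5) had no overlap but did not pass, although Sox6 passed in a fit of these 2 groups alone (adjusted p = 0.00161). With any one of the 6 libraries left out, between 0 and 2 members were called, and 3.21% to 3.68% of all genes in either direction. The calls then lost had log2 fold changes of 0.57 to 0.89, in the direction of the full fit. The highest adjusted p-values over all alternatives were 0.0325 for Sox2, 0.0541 for Sox1, 0.0725 for Sox21 and 0.0312 for Sox5.

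Levels of 3 marker lists stood beside these differences as follows, and their part in the SOX differences was not tested. In iHoxc9 the neural progenitor markers summed to 1868 to 2019.9 CPM, with 1 of 12 higher and 3 lower than in control. In iHoxc10 they summed to 1405 to 1622 CPM, with none higher and 4 lower than in control, and 1 was higher in iHoxc9 than in iHoxc10. The neuron markers summed to 8550.3 to 9856 CPM in iHoxc9 and 11333 to 12701 CPM in iHoxc10, with 3 of 12 lower in iHoxc9. The glial list of 12, which includes Sox8 and Sox10, was led by Nfia and Slc1a3. It summed to 19.1 to 29.8 CPM in control and 25.4 to 32.5 CPM in iHoxc6. In iHoxc8 the sum was 36.0 to 45.6 CPM, in iHoxc10 35.0 to 50.4 CPM and in iHoxc9 44.7 to 53.2 CPM. The 5 day 4 means followed the same order as those of Sox9, and also as those of Sox5 and Sox6. Against control, 3 glial markers were higher and 2 lower in iHoxc9, and 2 were higher and 1 lower in iHoxc10. Among genes with at least 10 counts in 3 libraries, 9.13% were higher and 9.5% lower in iHoxc9. In iHoxc10 these shares were 8.87% and 10.3%. The median log2 fold change of the list against control was -0.25 in iHoxc9 and 0.31 in iHoxc10. Nfia, a factor that acts with Sox9 at the onset of gliogenesis, averaged 7.83 CPM in control and 20.5 CPM in iHoxc9. The astrocyte markers Gfap and Aqp4 averaged at most 0.129 CPM in any group.

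The other mouse Sox genes formed a second list of 10, of which 9 were tested. Against day 2, 3 were higher and 2 lower in control, where 21.2% of all genes were called each way. A mean of at least 1 CPM in some group was reached by 5. Sox13, the other SoxD gene, was the only abundant one, at 73.0 CPM on day 2 and 89.4 CPM in control (0.29, SE 0.18, adjusted p = 0.198). In iHoxc9 it was at 50.5 CPM, lower than control by a log2 fold change of -0.82 (SE 0.19, adjusted p = 0.00231), a direction opposite to that of Sox5 and Sox6. Sox8, a SoxE gene like Sox9, rose from 1.41 to 3.46 CPM in control (1.29, SE 0.26, adjusted p = 0.000218). Sox10, of neural crest and oligodendrocytes, had at most 3 counts in any day 2 library and averaged 0.840 CPM in control, 0.135 CPM in iHoxc9 and 1.07 CPM in iHoxc10. Sox7, an endothelial and endodermal gene, fell from 1.38 to 0.0728 CPM, a level under that of 3 counts (adjusted p = 3.45e-06). Sox14, the SoxB2 relative of Sox21 that marks some interneurons, had no count on day 2 and averaged 0.177 CPM in control, 1.03 CPM in iHoxc9 and 0.0859 CPM in iHoxc10. Its level in iHoxc9 was above control (adjusted p = 0.00156), where no library had more than 7 counts.

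Of the 6 POU genes whose proteins partner SOX proteins, 3 were higher and 1 lower in control than on day 2, against 21.2% of all genes each way. Pou5f1, the partner of Sox2 in pluripotent cells, averaged 1.04 CPM on day 2 and had no count in control. Pou3f1 rose from 2.31 to 17.7 CPM (2.94, SE 0.21, adjusted p = 5.69e-11) and Pou3f4, a neural POU gene, from 4.23 to 16.7 CPM (1.98, SE 0.17, adjusted p = 1.57e-09). Pou3f1 was lower in iHoxc9 than in control, at 7.69 CPM (-1.20, SE 0.19, adjusted p = 7.23e-05). Pou3f2, another neural partner of SOX proteins, named here after its values were seen, had the largest iHoxc9 difference of the list. It was at 133 to 169 CPM in iHoxc9 and 21.5 to 34.0 CPM in control, 5.50-fold higher (2.46, SE 0.25, adjusted p = 1.69e-07), and at 44.0 to 59.3 CPM in iHoxc10 (0.90 above control, SE 0.24, adjusted p = 0.00777). For Pou3f4 the difference between iHoxc9 and control was 0.22 (SE 0.16, adjusted p = 0.345).

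Members were also compared by the shape of their levels. Pearson's r of log2(CPM + 1) was computed over the 18 libraries, which share their group, run and depth, so these values describe the 6 groups and carry no test. The SoxC genes and Sox5 and Sox9 followed one pattern: r was 0.94 between Sox4 and Sox11, 0.97 between Sox12 and Sox9 and 0.97 between Sox5 and Sox9. Sox2 was closest to Sox21 (0.72) and Sox6 (0.67), ahead of Sox1 (0.66) and Sox3 (0.19). Sox3 ran opposite to Sox4 (-0.82). Among the other genes with a mean of at least 5 CPM, those most like Sox3 were Cchcr1 (0.97), the replicative helicase gene Mcm2 (0.96) and the mitotic kinase gene Plk1 (0.96). Plk1 was at 84.2 CPM in control replicate 2, against 35.9 and 32.7 CPM in the others of its group. Sox1 was most like Agtr1a (0.98), Fkbp9 (0.98) and Soat1 (0.98), Sox2 like Wwtr1 (0.93), Pip4p2 (0.91) and Rhobtb3 (0.91), and Sox21 like Tor1aip1 (0.90), Jcad (0.85) and Tmem260 (0.81). For the SoxC genes the leading genes were Cxadr, Sh3glb1 and Nexmif with Sox11 (0.98 to 0.99), Xpr1, Smad7 and Gsk3b with Sox4 (0.98), and Kif21b, Grik5 and Igsf9 with Sox12 (0.98 to 0.99). Sox5 was most like Adgrb3, Kcnma1 and the axon guidance receptor gene Dcc (each 0.98), Sox9 like App, Bcl11a and Atp2b4 (0.98 to 0.99), and Sox6 like Acsl1, Dnmt3a and Cited2 (0.94).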

How the data were processed

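The authors aligned reads with STAR (2.7.0c), assigned them to RefSeq genes of mm10 with featureCounts, and deposited unnormalized read counts per gene for each of the 18 libraries; Picard (2.8.2) and DESeq2 (1.20.0) are also in the submitters' notes, and the strand setting is not given in the sources used here. Entrez identifiers were matched to RefSeq symbols (25275 of 27179). Counts were tested with edgeR 4.0.16 in R 4.3.3 (TMM, quasi-likelihood, 1 fit of all libraries by group) over 20944 genes, which required 1 count or more in some iHox library, with Benjamini-Hochberg adjustment and the thresholds of the methods (0.01 and a log2 fold change of 2); DESeq2 was 1.42.0. The SE was derived from the F statistic. Exon lengths came from GENCODE M21 and upstream sequences from RefSeq (GRCm38).

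The members and lists were chosen with earlier results of these data known. All 10 members are named; other Sox genes at 1 CPM or more in any group, the 3 POU genes with the largest change, the 2 highest genes of each marker list and the 3 most alike genes per member (at least 5 CPM) are named by rule; 1 marker list is not reported here. Mki67, Dcx, Gfap, Aqp4 and Pou3f2, and which groups of the listed genes to print, were picked once their values were known. On simulated data for iHoxc9 against control (18977 genes), edgeR recovered 60% of 100 genes changed by a log2 of 1 and 97% of 100 changed by 2, with 4 false calls. Same-numbered libraries correlated (deviations from group means, r of 0.519 to 0.738) in iHoxc9 and iHoxc10, and by 0.116 to 0.435 in iHoxc10 and day 2; other comparisons had at least 1 value under 0.1. Exact permutation tests of 3 against 3 cannot go below 0.1 and outliers were not tested. Alternatives: DESeq2's Wald test and size factors, a filter of 10 counts in 3 libraries or none, only 2 groups, the replicate block, each library left out, a log2 threshold of 1, a pseudocount of 0.1 in place of 1, and Spearman's rho.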

Additional observations from a re-analysis of the deposited data

Results flagged for a closer look

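Levels differed between iHoxc9 and iHoxc10, which are 2 different lines, for 4 members in the direct test. Sox1 was higher in iHoxc9 by a log2 fold change of 0.77 (adjusted p = 0.00856), Sox2 by 0.69 (0.00191), Sox21 by 0.81 (0.00878) and Sox5 by 0.84 (0.00262). For each gene all 3 iHoxc9 libraries lay above all 3 iHoxc10 libraries, and the share of all genes so separated was not counted. None of the 4 calls held under every alternative. With any one library left out 0 to 2 were made, when 3.21% to 3.68% of all genes were called in either direction.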

How the results depend on the processing

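Over 1200 combinations of a member's comparison with an alternative, 1106 kept their direction and their side of the threshold, 53 lost the call, 23 gained it and 18 changed sign, all of them without a call in either setting. Percentages in brackets are of all genes tested in the same setting. For members differing in iHoxc8 against control (2), DESeq2's Wald test gave 5 (9.25%) and the filter of 10 counts 1 (2.14%). No filter gave 1 (2.54%), the replicate block 1 (1.62%) and a fit of only the 2 groups 0 (0.932%). Leaving out 1 library gave 0 to 6 (0.425% to 7.52%). For iHoxc9 against iHoxc10 (4), DESeq2's size factors in edgeR gave 2 (5.14%) and leaving out 1 library 0 to 2 (3.21% to 3.68%). A fit of only these 2 groups also called Sox6 (11.1%). With 1 library left out, iHoxc6 against control ranged from 0 to 1 (0.215% to 5.2%), and iHoxc9 against control past both thresholds from 0 to 1. A log2 threshold of 1 gave, against day 2, 5 members in control (28.5% of all genes), 8 in iHoxc9 (32.4%), 7 in iHoxc10 (36.8%), 5 in iHoxc8 (30.8%) and 4 in iHoxc6 (32.5%), and against control 5 in iHoxc9 (7.81%) and 3 in iHoxc10 (6.86%). The cause was not tested. The replicate block changed no other of its 100 member calls than that of Sox9 in iHoxc8 against control.

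The sign changed for Sox21 in iHoxc6 against day 2 with no filter (0.0098) and in the fit of only the 2 groups (0.0027). With 1 library left out, values that changed sign ranged, against day 2 in iHoxc6, from -0.075 to 0.097 for Sox21 (above 0 without day 2 replicate 3 or iHoxc6 replicate 3) and from -0.16 to 0.29 for Sox6 (above 0 without day 2 replicate 3 or iHoxc6 replicate 1 or 3). Against control they ranged in iHoxc10 from -0.022 (without control replicate 1) to 0.38 for Sox1, from -0.89 to 0.11 (without control replicate 2) for Sox3 and from -0.32 to 0.24 (without control replicate 2) for Sox21, in iHoxc9 from -0.80 to 0.24 (without control replicate 2) for Sox3, in iHoxc8 from -0.0012 (without control replicate 3) to 1.03 for Sox3 and from -0.056 (without iHoxc8 replicate 3) to 0.28 for Sox4, and in iHoxc6 from -0.19 to 0.031 (without iHoxc6 replicate 2) for Sox4. In iHoxc9 against iHoxc10 they ranged from -0.21 to 0.14 for Sox11 (above 0 without iHoxc9 replicate 2 or 3 or iHoxc10 replicate 1) and from -0.029 (without iHoxc10 replicate 2) to 0.37 for Sox3. Levels moved by less than 1 SD in all 60 values with DESeq2's size factors and in 55 of 60 with a pseudocount of 0.1.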
